A study of Mus musculus with 4 samples.

Results

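The cells described here were the CD150+CD48- cells with low CD201 from E17.5 mouse fetal liver, sorted as lineage-negative, Sca1-positive and c-Kit-positive (LSK). They numbered 390 of 8094 called cells, 108 of 2742 in the KO library and 282 of 5352 in the WT library. A cell was a barcode with at least 8000 gene UMIs (unique molecular identifiers, each counting 1 captured transcript) and at most 10% mitochondrial UMIs. Antibody tags were put on a centred log ratio scale (CLR), the natural log of 1 plus a cell's tags for an antibody minus its mean over the 6 antibodies. Members had a CD150 CLR above -1.14, a CD48 CLR below 2.34, fewer than 2 UMIs of each of 5 lineage transcripts (Elane, Klf1, Pf4, Il7r and Cma1), and a CD201 CLR below the median of the gated cells of their own library. The tags and those 5 transcripts chose the cells, so they are given as a description and support nothing.

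The KO library came from embryos with the blood-cell recombinase transgene Vav-Cre and both Bclaf1 alleles floxed (Vav-Cre:Bclaf1f/f), and the WT library from embryos with the same floxed alleles and no Cre (Bclaf1f/f). Each genotype was a pool of 10 embryos, enriched for c-Kit, sorted for LSK (20000 cells) and captured once (10000 cells loaded). CITE-seq read the transcripts and antibody barcodes of the same cells. Presence of Cre and loss of Bclaf1 cannot be told apart, and Vav-Cre acts across blood cells, not in stem cells alone. With 1 library per genotype no difference has a replicate check, no test was made and no p-value is given. Brackets hold 95% intervals that cover counting error only.

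Haematopoietic stem cells can renew themselves and give rise to every blood lineage, and the fetal liver is where they multiply before birth. CD150, encoded by Slamf1, and CD48 are members of the SLAM family of surface receptors, and presence of CD150 without CD48 enriches for stem cells in mice. CD201, the endothelial protein C receptor encoded by Procr, adds to that enrichment, so stem cell gates usually keep the CD201-high cells. BCLAF1 works in the nucleus, where it has been tied to RNA splicing and to control of transcription.

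The members were found through barcodes joined to antibodies. The barcodes of the 3 antibodies that defined the gate are shown because every count of members rests on reading them apart. Each is 15 bases long, and the capitals mark the whole barcode.
CD150: CAACGCCTAGAAACC
CD48: AGAACCGCCGTAGTT
CD201: TATGATCTGCCCTTG
Among the 6 antibody barcodes, the nearest other barcode differed at 8 positions for CD150, at 10 for CD48 and at 9 for CD201.

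Promoters are shown for 2 mitotic genes and 1 heat shock gene whose transcripts are described in the results. Sequences are 250 bases before to 50 after the start site on the gene's strand, from RefSeq on build GRCm38.p6. Capitals mark the CCAAT box (CCAAT), the cell cycle homology region (TTTGAA) and, in Hspa1a, CCAAT and a heat shock element (GAANNTTC, where N is any base), searched on both strands, so that ATTGG and TTCAAA are reverse-strand matches. In Ube2c a forward and a reverse CCAAT overlap.
Ube2c, chr2:164769679-164769978, plus strand: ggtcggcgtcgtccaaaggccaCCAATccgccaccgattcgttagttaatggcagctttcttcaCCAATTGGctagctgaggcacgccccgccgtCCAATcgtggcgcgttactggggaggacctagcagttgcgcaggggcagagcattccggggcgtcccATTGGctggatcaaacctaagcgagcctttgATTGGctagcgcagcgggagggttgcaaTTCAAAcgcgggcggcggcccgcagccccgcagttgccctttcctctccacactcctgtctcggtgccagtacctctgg
Ckap2l, chr2:129297163-129297462, minus strand: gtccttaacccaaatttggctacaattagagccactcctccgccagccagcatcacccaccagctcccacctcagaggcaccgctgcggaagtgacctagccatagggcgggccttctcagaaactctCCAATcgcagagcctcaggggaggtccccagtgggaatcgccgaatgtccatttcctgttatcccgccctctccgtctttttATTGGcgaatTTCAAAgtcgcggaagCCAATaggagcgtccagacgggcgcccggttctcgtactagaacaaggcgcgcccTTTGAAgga
Hspa1a, chr17:34972107-34972406, minus strand: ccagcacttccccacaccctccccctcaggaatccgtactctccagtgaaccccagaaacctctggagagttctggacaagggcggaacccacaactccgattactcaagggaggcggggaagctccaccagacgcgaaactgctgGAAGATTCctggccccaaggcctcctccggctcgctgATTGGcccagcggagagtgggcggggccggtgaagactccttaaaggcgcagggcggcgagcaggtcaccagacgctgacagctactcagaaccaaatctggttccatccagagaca
Of 52 genes on the list of G2 and M phase genes, 46 matched a RefSeq promoter, with 51 promoters in all. CCAAT stood in 74.5% of these promoters, against 37.4% of 32851 promoters of the same length, and TTTGAA in 66.7% against 17.9%. The promoters printed are examples that hold the motifs. Nusap1, a mitotic gene named below, had neither CCAAT nor TTTGAA, and Bub1 had CCAAT without TTTGAA. In 34 promoters of S phase genes CCAAT stood in 67.6% and TTTGAA in 17.6%. GAANNTTC stood in 52.9% of 17 promoters of heat shock genes, against 7.86% of all promoters. A match describes the letters and is no measured binding.

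The low CD201 cells had more tags of CD48 and fewer of Sca1 than the high CD201 cells of the same gate. In the low CD201 cells the median CD48 tags per cell were 948 in KO and 574.5 in WT, and in the high CD201 cells 255 in KO and 159.5 in WT. Median CD201 tags were 47.5 in KO and 20 in WT low CD201 cells, and 178 in KO and 89 in WT high CD201 cells. Median CD150 tags were 252 in KO and 190.5 in WT low CD201 cells, and 227 in KO and 149.5 in WT high CD201 cells. Median Sca1 tags were 278.5 in KO and 261.5 in WT low CD201 cells, and 389 in KO and 420 in WT high CD201 cells. Members met the CD48 limit of the gate with a median CD48 CLR of 1.61 in KO and 1.48 in WT.

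The median CD201 CLR that split the gate was -0.765 in KO and -1.14 in WT, so the same CD201 level could fall on different sides in the 2 libraries. In KO the nearest member inside that cut had a CLR of -0.773 with 104 tags, and the nearest cell outside had -0.765 with 165 tags. In WT the nearest member inside had -1.144 with 6 tags, and the nearest outside had -1.142 with 47 tags. Within 0.1 CLR of the CD201 cut lay 7 members and 15 other gated cells in KO, and 24 members and 29 other gated cells in WT. At the CD150 cut the nearest member inside had -1.135 in KO and -1.136 in WT, and the nearest cell outside -1.142 in both libraries. At the CD48 cut the nearest member inside had 2.319 in KO and 2.332 in WT, and the nearest cell outside 2.343 in KO and 2.350 in WT.

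**Figure D1:**
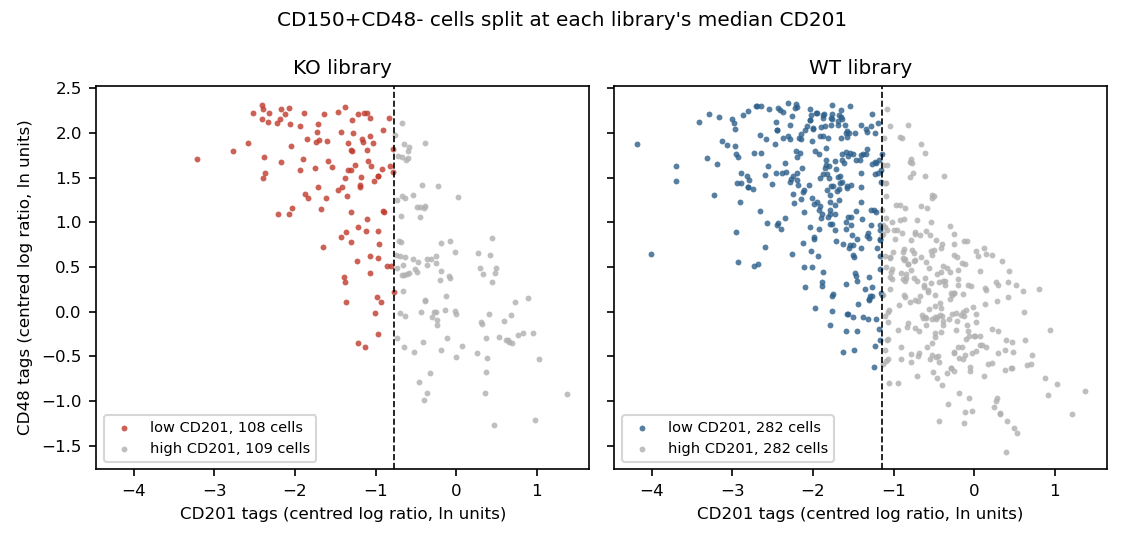
CD48 tags (vertical axis, CLR in natural log units) against CD201 tags (horizontal axis, CLR) for each gated cell, in the KO library (left) and the WT library (right). The dashed line is the library's own CD201 median, -0.765 in KO and -1.14 in WT; coloured points are the 108 KO and 282 WT members, with a median CD48 CLR of 1.61 in KO and 1.48 in WT.

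The lineage limit removed a larger share of tag-defined CD150+CD48- cells in KO than in WT. By tags alone 297 KO and 619 WT cells were CD150+CD48-, 10.8% and 11.6% of called cells. Of these, 80 KO cells (26.9%, 21.97 to 32.4) and 55 WT cells (8.89%, 6.76 to 11.4) had 2 or more UMIs of a lineage transcript. Klf1, an erythroid transcription factor, accounted for 60 KO and 29 WT cells, and the platelet chemokine gene Pf4 for 19 KO and 23 WT cells. With every cell thinned to 8000 UMIs the shares were 10.4% in KO and 2.91% in WT, a difference of 7.53 points (4.12 to 11.7), against 18.1 points (12.7 to 23.7) at full depth.

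After that limit the low CD201 cells made up 3.94% (3.24 to 4.74) of called cells in KO and 5.27% (4.69 to 5.90) in WT, a difference of -1.33 points (-2.25 to -0.35). The high CD201 cells gave 3.98% in KO and 5.27% in WT, as the median split makes the sides of a library alike. With the UMI minimum doubled the difference was 0.05 points, and with the WT CD201 cut in both libraries it was -2.57 points. Without the lineage limit it was -0.38 points, and with that limit at equal depth -0.75 points. For all CD150+CD48- cells by tags alone, of either CD201 level, the difference was -0.73 points (-2.15 to 0.74), an interval that holds 0. Members had a median of 22678 gene UMIs in KO and 17628 in WT, and high CD201 cells 19167 in KO and 13875 in WT. Summed gene UMIs of the members were 2796528 in KO and 5614367 in WT. The libraries shared 5 barcodes among called cells and 0 among members.

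Markers of stem cells were present in the members, at levels below those of the high CD201 cells for 3 of the 4 genes that came with the label. Levels are UMIs per 1000000 gene UMIs (CPM). The CD150-CD48- and CD150+CD48+ cells were held to the same limit on lineage transcripts, and cells outside the gate as a whole were not. Slamf1 had 31.1 CPM (24.9 to 38.4) in KO and 21.6 CPM (17.9 to 25.8) in WT members. High CD201 cells had 25.1 CPM in KO and 22.2 CPM in WT, and CD150-CD48- cells 2.51 CPM in KO and 1.76 CPM in WT. A Slamf1 UMI was seen in 19.4% of KO and 12.8% of WT members at 8000 UMIs per cell, and in 2.36% of KO and 1.39% of WT CD150-CD48- cells, which lack the protein by their tags.

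Mecom, a zinc finger factor needed by stem cells, had 195 CPM in KO and 196 CPM in WT members, 362 CPM in KO and 358 CPM in WT high CD201 cells, and 34.9 CPM in KO and 44.2 CPM in WT outside the gate. Hlf, a PAR-bZIP factor of stem cells, had 389 CPM in KO and 353 CPM in WT members, and 607 CPM in KO and 566 CPM in WT high CD201 cells. Mycn, a MYC family factor, had 89.8 CPM in KO and 124 CPM in WT members, and 163 CPM in KO and 164 CPM in WT high CD201 cells. Against all cells outside the gate, 6.03% of 5572 measured genes were at least 1.5-fold higher in both libraries and 1.92% at least 1.5-fold lower. The log2 ratios of the members in KO and WT were 2.38 and 2.21 for Slamf1, 2.48 and 2.15 for Mecom, 1.41 and 1.06 for Hlf, and 0.98 and 0.97 for Mycn. Mecom, Hlf and Mycn set the members apart from cells outside the gate as a whole. Slamf1 encodes CD150, whose tag chose the members, so its higher level is a description of the rule. The same holds for Slamf1 against CD150-CD48- cells. Mecom and Hlf were not higher in the members than in CD150-CD48- cells, and Hlf was lower in both libraries. Mecom had 207 CPM in KO and 219 CPM in WT CD150-CD48- cells, and Hlf 574 CPM in KO and 552 CPM in WT. The 27 stem cell identity genes summed to 4430 CPM in KO and 4656 CPM in WT members, and to 4641 CPM in KO and 5067 CPM in WT CD150-CD48- cells.

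**Figure D2:**
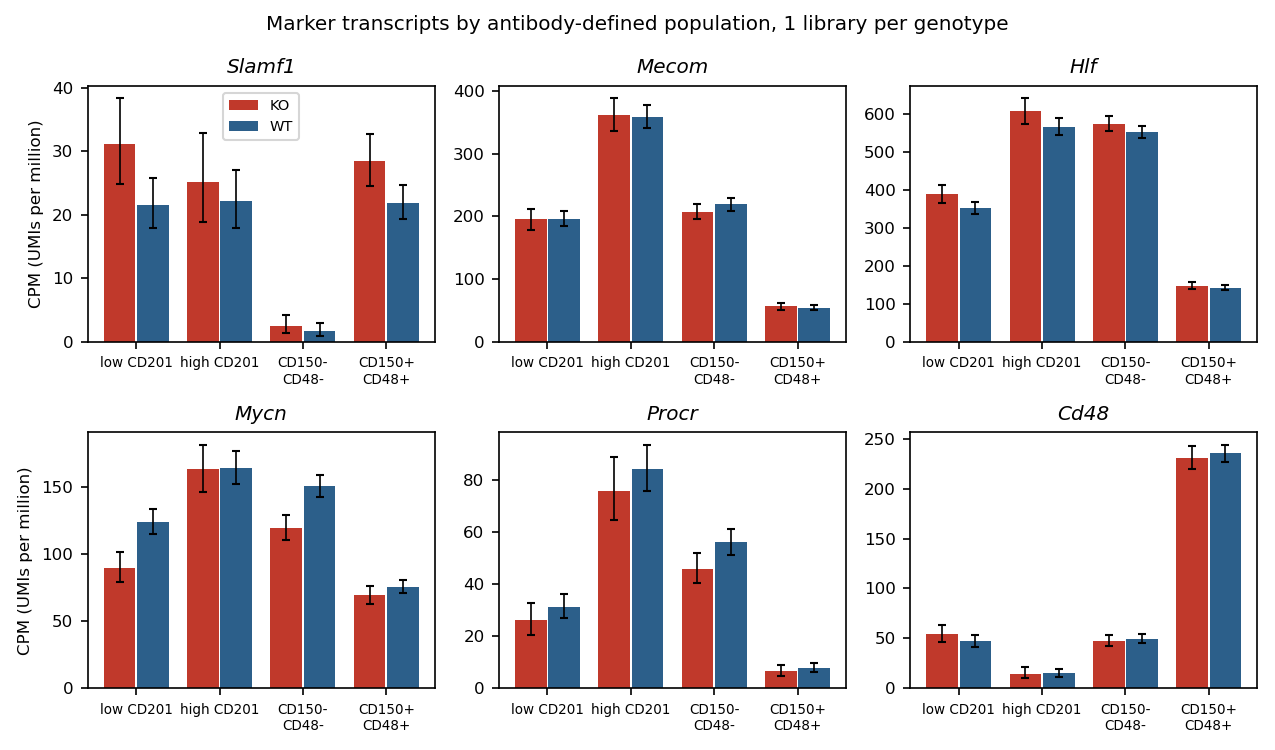
Level in CPM (vertical axes, from 0) of 6 marker transcripts in 4 populations defined by antibody tags, with KO bars left of WT bars; error bars are 95% Poisson intervals of the summed UMIs of 1 library. Mecom, Hlf, Mycn and Procr are lower in the low CD201 than in the high CD201 cells, Slamf1 is near 0 in CD150-CD48- cells, and Cd48 is higher in the low CD201 than in the high CD201 cells.

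Markers of other cell types were present to differing degrees, and their part in the results was not tested. The 16 lymphoid progenitor markers summed to 374 CPM in KO and 417 CPM in WT members, against 427 CPM in KO and 511 CPM in WT outside the gate. Of these, Il7r, Dntt, Rag1, Ly6d and Igll1 had 0 UMIs in the members of both libraries, and Il7r was limited by the gate itself. The 15 erythroid progenitor markers summed to 2159 CPM in KO and 2310 CPM in WT members, against 1287 CPM in KO and 1172 CPM in WT outside the gate. The erythroid sum was thus higher in the members than outside the gate, although Klf1 was limited by the gate. In high CD201 cells it was higher still, at 2946 CPM in KO and 2736 CPM in WT. CD150-CD48- cells had 2807 CPM in KO and 2680 CPM in WT, also above the members. The erythroid list includes haemoglobin genes, and all haemoglobin genes summed to 454 CPM in KO and 602 CPM in WT outside the gate. Of 6 measured erythroid markers, 4 were at least 1.5-fold lower in the members in both libraries and 1 higher. Their median log2 ratio against cells outside the gate was -1.75 in KO and -1.50 in WT. The 14 granulocyte-monocyte progenitor markers summed to 687 CPM in KO and 685 CPM in WT members, against 1555 CPM in KO and 1332 CPM in WT outside the gate. The 13 macrophage or dendritic markers summed to 343 CPM in KO and 77 CPM in WT members, against 67 CPM in KO and 73 CPM in WT outside the gate. The 10 mast cell or basophil markers summed to 9 CPM in KO and 8 CPM in WT members, against 724 CPM in KO and 542 CPM in WT outside the gate. Elane of the granulocyte-monocyte list and Cma1 of the mast cell list were limited by the gate. Cells outside the gate were not held to that limit, so part of both contrasts was set by the rule. The 14 megakaryocyte progenitor markers summed to 444 CPM in KO and 372 CPM in WT members, against 317 CPM in KO and 289 CPM in WT outside the gate. That sum was higher in the members although Pf4 was limited by the gate. Of 6 measured, 3 were at least 1.5-fold higher in the members in both libraries and 1 lower. The 11 hepatocyte markers summed to 78 CPM in KO and 73 CPM in WT members, against 59 CPM in KO and 61 CPM in WT outside the gate. Haemoglobin genes summed to 1617 CPM in KO and 1855 CPM in WT members, and to 354 CPM in KO and 449 CPM in WT barcodes with 100 to 300 UMIs, which hold free RNA.

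A few members went against the label. The 4 KO and 2 WT members with at least 10 UMIs of the MHC class II genes Cd74, H2-Aa, H2-Ab1 and H2-Eb1, which serve antigen presentation, held 98.5% of 1080 such UMIs in KO and 90.7% of 429 in WT. Their class II UMIs were 74 to 419 per cell in KO and 190 to 199 in WT, while no other member had more than 1 in KO or 3 in WT. Together these cells had 0 Slamf1 UMIs in either library, 2 Mecom UMIs in KO and 0 in WT, and 3 Hlf UMIs in KO and 0 in WT. They carried 104 Irf8 and 127 Id2 UMIs in KO and 42 Irf8 and 72 Id2 UMIs in WT, genes of factors known from dendritic cells. Neither gene is on the macrophage or dendritic list, and Irf8 is on the granulocyte-monocyte list. The dendritic markers Siglech and Itgax, which are on the former, had few UMIs in these cells. Siglech had 1 in KO and 2 in WT, and Itgax 5 in KO and 7 in WT. The limit of 10 UMIs was chosen after these values were seen, and no high CD201 cell of either library reached it. CD150-CD48- cells did, 6 of 254 in KO (2.36%) and 14 of 502 in WT (2.79%), against 3.70% of KO and 0.71% of WT members. Of all cells outside the gate, 19 of 2525 in KO and 44 of 4788 in WT reached it. Such cells were thus not particular to the members.

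Compared with the high CD201 cells of the same gate and library, the low CD201 cells had more mitotic and histone transcripts and lower levels of some stem cell identity genes. Among 5857 genes measured at 20 CPM or more in either arm, 166 (2.83%) were at least 1.5-fold higher and 109 (1.86%) at least 1.5-fold lower in both libraries. The median log2 ratio of all these genes was -0.08 in KO and -0.03 in WT. The antibody tags chose the arms, and the transcripts other than those of the antibodies' own genes and the 5 lineage genes did not.

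Of the 44 G2 and M phase genes that could be measured, 32 were at least 1.5-fold higher in low CD201 cells of both libraries and 0 lower, with a median log2 ratio of 1.62 in KO and 0.99 in WT. Of 21 replication-dependent histone genes, whose transcripts are made in S phase, 16 were higher and 0 lower, with medians of 1.67 in KO and 1.03 in WT. Of 41 S phase genes 14 were higher and 0 lower, with medians of 0.36 in KO and 0.58 in WT. The checkpoint kinase gene Bub1 had 37.9 CPM in low and 7.11 CPM in high CD201 cells of KO, and 21.0 CPM in low and 4.90 CPM in high CD201 cells of WT. Its log2 ratios were 2.41 (1.63 to 3.30) in KO and 2.10 (1.42 to 2.84) in WT. Cyclin A2 (Ccna2), which drives S and G2 phase, had ratios of 2.49 in KO and 1.75 in WT.

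Ckap2l, which encodes a spindle protein and whose promoter is printed above, had 60.8 CPM in low and 11.9 CPM in high CD201 cells of KO, and 33.8 CPM in low and 9.10 CPM in high CD201 cells of WT. Cdca3, a mitotic regulator, had ratios of 2.66 in KO and 1.95 in WT, the mitotic kinase gene Pbk 2.88 in KO and 1.65 in WT, and the kinetochore gene Spc24 2.29 in KO and 1.55 in WT. Of histone genes, the H3 gene Hist1h3c had ratios of 3.01 in KO and 1.70 in WT and Hist1h3b 2.91 in KO and 1.55 in WT. The linker histone genes Hist1h1b and Hist1h1a had 2.52 and 2.17 in KO, and 1.71 and 1.66 in WT, and the H2A gene Hist1h2ab 2.58 in KO and 1.45 in WT. Histone genes have near-identical copies, so counts of single copies are uncertain. H2-Aa also ranked among the 12 highest, with 226 of 227 UMIs of the KO gate and 121 of 123 of the WT gate in low CD201 cells, and nearly all of them in the class II cells given above.

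Some genes of the imprinted growth network and of stem cell identity were lower in low CD201 cells. Of 24 stem cell identity genes, 8 were at least 1.5-fold lower in both libraries and 0 higher, with a median log2 ratio of -0.46 in both KO and WT. Of 10 imprinted growth genes 5 were lower and 0 higher, with medians of -0.50 in KO and -0.68 in WT. H19, an imprinted growth-restraining RNA, had 66.2 CPM in low and 218 CPM in high CD201 cells of KO, and 55.0 CPM in low and 158 CPM in high CD201 cells of WT. Its log2 ratios were -1.72 (-1.97 to -1.47) in KO and -1.53 (-1.72 to -1.33) in WT. Its neighbour Igf2, the fetal growth factor gene (H19 lies at chr7:142575530-142578146 and Igf2 at chr7:142650768-142666816 on GRCm38.p6), had ratios of -2.21 in KO and -2.51 in WT. The growth factor gene Igf1 had 6.08 CPM in low and 41.7 CPM in high CD201 cells of KO, and 7.84 CPM in low and 35.7 CPM in high CD201 cells of WT.

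Procr, the gene of CD201 itself, had ratios of -1.54 (-1.96 to -1.13) in KO and -1.43 (-1.69 to -1.16) in WT, a description of the rule. Mllt3, a chromatin reader that maintains human stem cells in culture, had ratios of -1.25 in KO and -0.97 in WT, and the aryl hydrocarbon receptor gene Ahr -1.33 in KO and -1.39 in WT. The remaining genes of the 12 lowest were Bank1 at -2.36 in KO and -2.998 in WT, Ndnf at -1.97 in KO and -2.46 in WT, and Fxyd1 at -1.70 in KO and -1.44 in WT. Chil5 had -1.53 in KO and -1.09 in WT, the lymphotoxin gene Ltb -1.43 in KO and -1.02 in WT, and Hacd4 -1.38 in KO and -1.13 in WT. Of early response genes, 0 of 6 measured AP-1 subunits and 0 of 14 feedback regulators were past 1.5-fold in both libraries. These counts lie near the all-gene shares of 2.83% higher and 1.86% lower. Median log2 ratios were -0.39 in KO and -0.33 in WT for AP-1 subunits, and -0.19 in KO and -0.23 in WT for feedback regulators. Nr4a, Egr and Klf factors had medians of -0.32 in KO and -0.31 in WT. All 3 lists lay below the all-gene medians of -0.08 in KO and -0.03 in WT.

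**Figure D3:**
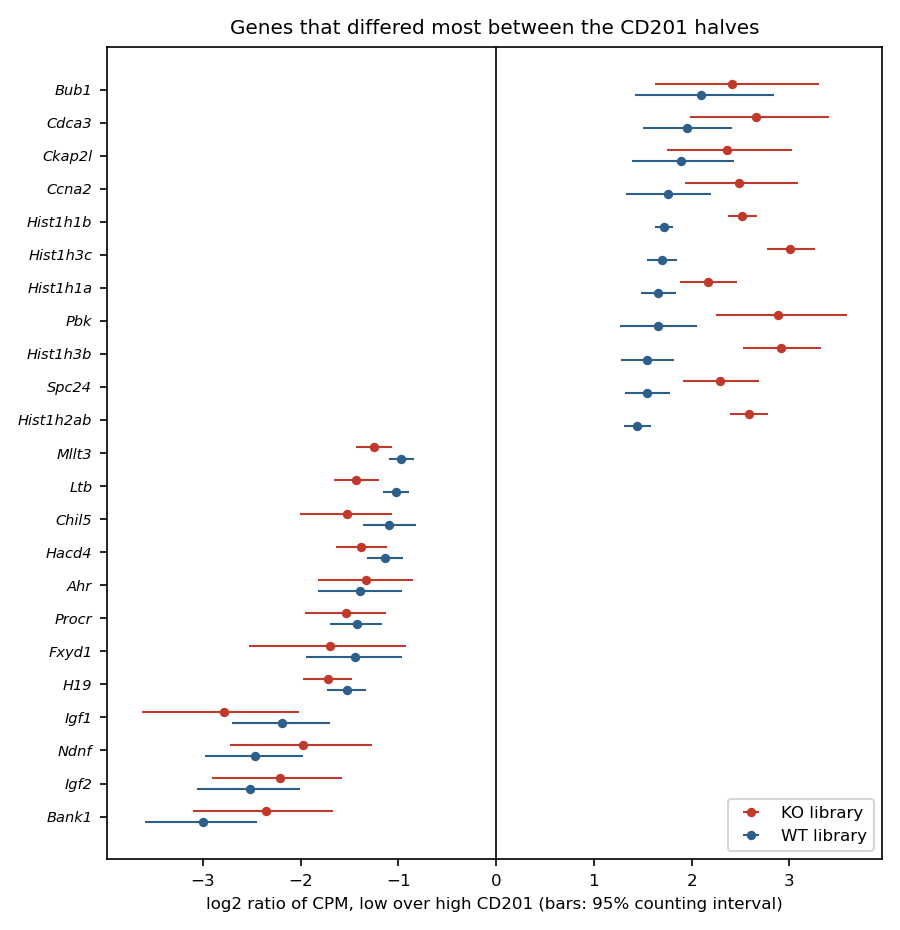
Log2 ratio of CPM in low over high CD201 cells (horizontal axis) for the 12 lowest and 11 of the 12 highest genes, each with a KO point above a WT point and bars for the 95% counting interval; H2-Aa is left out because its high CD201 counts were 1 UMI in KO and 2 in WT. All 11 genes on the right are histone or mitotic genes, and Igf1, Igf2, Bank1 and Ndnf lie farthest to the left.

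CD150-CD48- cells, which are enriched for multipotent progenitors, differed from the members in Slamf1, in some megakaryocyte and lymphoid markers and in some histone genes. Among 5680 measured genes, 66 (1.16%) were at least 1.5-fold higher in the members in both libraries and 81 (1.43%) lower. Both arms were held to the limit on the 5 lineage transcripts. Slamf1 was highest, with log2 ratios of 3.63 in KO and 3.61 in WT, and the antibody against its product chose the arms. The apolipoprotein gene Apoe had 693 CPM in members and 214 CPM in CD150-CD48- cells of KO, and 737 CPM in members and 291 CPM in CD150-CD48- cells of WT. The thrombin receptor gene F2r had ratios of 2.02 in KO and 1.43 in WT, the vesicle transport gene Rab27b 2.33 in KO and 1.62 in WT, and the monoamine transporter gene Slc18a2 1.72 in KO and 1.37 in WT. Ctnnal1 had 1.63 in KO and 1.29 in WT, and the transcription factor gene Dach1 had 1.75 in KO and 1.19 in WT. Of 5 measured megakaryocyte progenitor markers 2 were higher and 0 lower in the members.

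The cytokine receptor gene Flt3, a marker of lymphoid-biased progenitors, had 29.7 CPM in members and 114 CPM in CD150-CD48- cells of KO, and 30.5 CPM in members and 97.5 CPM in CD150-CD48- cells of WT. Of 6 lymphoid progenitor markers 4 were at least 1.5-fold lower and 0 higher in the members, with medians of -0.84 in KO and -0.78 in WT. The phosphodiesterase gene Pde4d had ratios of -1.95 in KO and -1.70 in WT, and Wfdc17 -1.85 in KO and -2.44 in WT. Wfdc18 had -3.34 in KO and -2.03 in WT, Msrb3 -2.03 in KO and -1.78 in WT, and Ndnf -2.42 in KO and -2.40 in WT. Bank1 had -2.25 in KO and -2.84 in WT, and Igf1 -2.09 in KO and -1.75 in WT. Of 22 stem cell identity genes 4 were higher and 4 lower, with medians of -0.04 in KO and -0.08 in WT, near the all-gene medians of 0.01 in KO and 0.02 in WT. Of 44 G2 and M phase genes 2 were higher and 0 lower, with medians of 0.72 in KO and 0.25 in WT. Of 21 replication-dependent histone genes 7 were higher and 0 lower, with medians of 0.79 in KO and 0.51 in WT.

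The members were not uniform in cell cycle transcripts. At 8000 UMIs per cell they had a median of 21.5 G2 and M phase UMIs in KO and 18 in WT, with an upper quartile of 104 in KO and 52.8 in WT, and a range up to 219 in KO and 213 in WT. High CD201 cells had medians of 15 in KO and 14 in WT, with upper quartiles of 20 in KO and 18 in WT. The upper quartiles of the low CD201 cells lay far above their medians. At least 50 such UMIs, a limit chosen after the values were seen, were held by 43 of 108 KO members (39.8%, 30.5 to 49.7) and 73 of 282 WT members (25.9%, 20.9 to 31.4), a difference of 13.9 points (3.66 to 24.5). In high CD201 cells the shares were 10.1% in KO and 7.09% in WT, in CD150-CD48- cells 24.4% in KO and 18.5% in WT, and in CD150+CD48+ cells 47.9% in KO and 36.4% in WT. All cells outside the gate had 40% in KO and 31.4% in WT.

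The direction of that difference between libraries depended on the gate. It was -1.11 points with the UMI minimum doubled, and -5.45 points with a CD48 limit of CLR 1, which left 55 KO and 165 WT members. Limits of 40 and 80 UMIs gave 11.5 and 13.9 points. Its sign changed with the UMI minimum and with the CD48 limit.

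**Figure D4:**
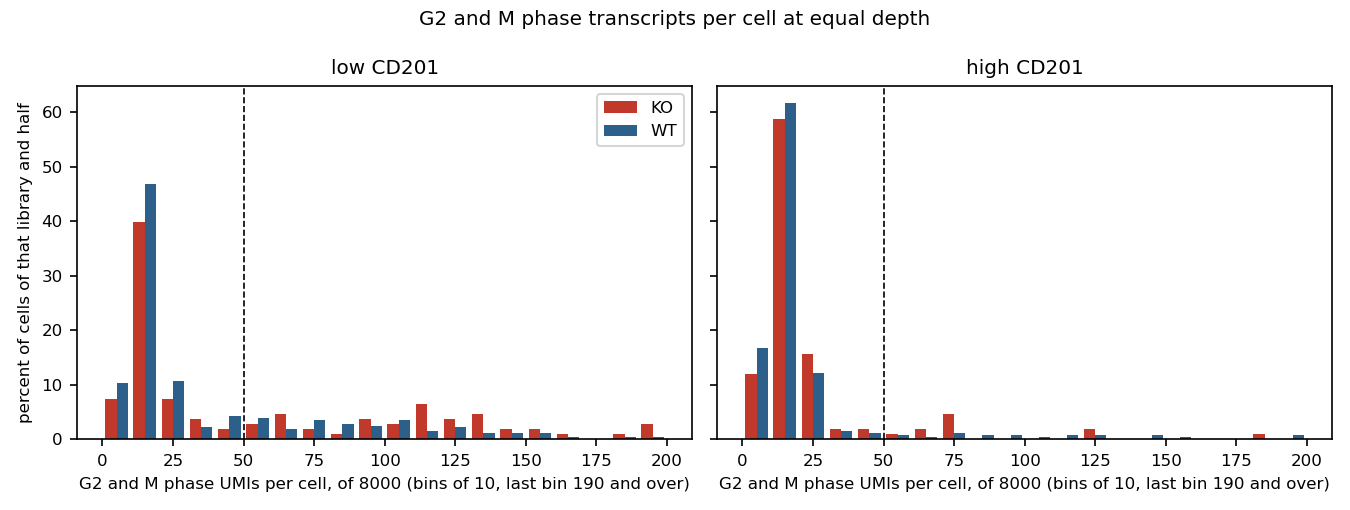
Share of cells in percent (vertical axis) by the number of G2 and M phase UMIs among 8000 UMIs of a cell (horizontal axis, bins of 10 UMIs, the last holding 190 and over), for low CD201 cells (left) and high CD201 cells (right), with KO bars left of WT bars. The dashed line marks 50 UMIs; 39.8% of KO and 25.9% of WT low CD201 cells lie to its right, against 10.1% of KO and 7.09% of WT high CD201 cells.

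Members rich in G2 and M phase transcripts had Mecom and Hlf at levels near those of the other members. Mecom had 192 CPM in the rich and 198 CPM in the other members of KO, and 190 CPM in the rich and 199 CPM in the other members of WT. Hlf had 377 CPM in the rich and 401 CPM in the other members of KO, and 332 CPM in the rich and 363 CPM in the other members of WT. Slamf1 had 30.7 CPM in the rich and 31.5 CPM in the other members of KO, and 27.1 CPM in the rich and 18.7 CPM in the other members of WT. Mycn was lower in rich members, with 72.6 CPM against 108 CPM in KO and 98.5 CPM against 137 CPM in WT. Mki67, a marker of cycling cells that is part of the list, had 607 CPM in the rich and 28.6 CPM in the other members of KO, and 487 CPM in the rich and 27.3 CPM in the other members of WT. The median CD201 CLR was -1.71 in the rich and -1.22 in the other members of KO, and -2.09 in the rich and -1.76 in the other members of WT. Without the rich cells in both arms, the stem cell identity median of low over high CD201 cells was -0.46 in both KO and WT, as with them.

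Within the members, Flt3 was lower in the tertile with most CD150 than in the others. When each library's members were cut into 3 equal groups by CD150 CLR, Flt3 had 45.9, 39.5 and 7.01 CPM from low to high CD150 in KO, and 47.4, 34.5 and 8.56 CPM in WT. The first and second tertiles of Flt3 had overlapping intervals in both libraries. Itga2b, the platelet integrin gene, stayed below 20 CPM throughout, with 1, 13 and 16 UMIs in KO and 7, 10 and 25 UMIs in WT, and its neighbouring tertiles had overlapping intervals. Slamf1 had 8.92, 23.7 and 56.1 CPM in KO and 6.99, 18.95 and 39.6 CPM in WT, which follows the tag that made the groups. Hlf had 446, 456 and 276 CPM in KO and 378, 415 and 269 CPM in WT, lowest where CD150 was highest. Mecom had 182, 220 and 179 CPM in KO and 193, 190 and 205 CPM in WT, without an order shared by the libraries. The groups held 36 cells each in KO and 94 each in WT.

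Between the libraries, Bclaf1 was checked first. Bclaf1 had 84.0 CPM (73.6 to 95.5) in KO and 223 CPM (211 to 236) in WT members, a log2 ratio of -1.41 (-1.62 to -1.21). The ratio was -1.17 in high CD201 cells and -1.53 outside the gate. In barcodes of 100 to 300 UMIs Bclaf1 had 91.4 CPM in KO and 203 CPM in WT, about as much as in the cells, so the part of free RNA in the KO members' residual level cannot be told apart. The deleted exons are not given in the labels, and 3' counts outside a deletion check nothing. Thrap3, which encodes the closest relative of BCLAF1, had 238 CPM in KO and 168 CPM in WT members, a ratio of 0.50 (0.36 to 0.65).

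Among 5985 genes measured in the members, 264 (4.41%) were at least 1.5-fold higher in KO and 34 (0.568%) at least 1.5-fold lower, around a median log2 ratio of 0.05. Without the lineage limit 180 were higher and 175 lower, and with it at equal depth 214 were higher and 173 lower, so the balance rested on that limit. In high CD201 cells the same shares were 5.8% and 0.945% of 6246 genes, around a median of 0.09. The higher side in the members was led by early response factors, heat shock, metallothionein and MHC class II genes. Both comparisons draw on the same 2 libraries.

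AP-1, the transcription factor made of Fos and Jun family subunits, is switched on within minutes by growth and stress signals. Of 6 measured AP-1 subunits 4 were at least 1.5-fold higher in KO members and 0 lower, with a median log2 ratio of 0.88. Fos had 167 CPM in KO and 35.4 CPM in WT members, a ratio of 2.24 (1.99 to 2.48). It had 2.11 in high CD201 cells and 1.84 outside the gate, and 105 CPM in KO and 39.2 CPM in WT barcodes of 100 to 300 UMIs, and with that profile subtracted at an assumed 10% of UMIs the ratio was 2.31. Fosl2 had 27.2 CPM in KO and 10.5 CPM in WT (1.37), Jun 640 CPM in KO and 303 CPM in WT (1.08), and Junb 79.0 CPM in KO and 49.3 CPM in WT (0.68). Jund had 214 CPM in both KO and WT, and Batf 27.2 CPM in KO and 33.8 CPM in WT (-0.32, -0.72 to 0.07).

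Of 7 measured factors of the Nr4a, Egr and Klf families, 5 were at least 1.5-fold higher in KO members and 0 lower, with a median log2 ratio of 1.13. The orphan nuclear receptor gene Nr4a2 had 27.9 CPM in KO and 4.99 CPM in WT members, a ratio of 2.48 (1.84 to 3.16). Its relative Nr4a1 had 20.4 CPM in KO and 6.23 CPM in WT (1.71, 1.08 to 2.36), and Klf2, a Krüppel-like factor, 46.5 CPM in KO and 10.7 CPM in WT (2.12, 1.67 to 2.59). Egr1, a zinc finger factor known to hold adult stem cells in quiescence, had 167 CPM in KO and 80.7 CPM in WT (1.05, 0.86 to 1.24), and Klf6 109 CPM in KO and 49.7 CPM in WT (1.13). Klf10 and Klf13 had 0.29 and 0.04.

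Of 15 regulators that feed back on early response signalling, 10 were at least 1.5-fold higher in KO members and 0 lower, with a median log2 ratio of 0.73. The MAP kinase phosphatase gene Dusp1 had 60.8 CPM in KO and 22.4 CPM in WT (1.44, 1.10 to 1.78). Nfkbiz, an atypical inhibitor of NF-kB, had 23.2 CPM in KO and 9.08 CPM in WT (1.36), and the mRNA decay factor gene Zfp36 70.8 CPM in KO and 32.8 CPM in WT (1.11). The antiproliferative genes Btg1 and Btg2 had 0.73 and 0.76, while Nfkbia, which encodes the classical NF-kB inhibitor, had 48.3 CPM in KO and 53.3 CPM in WT (-0.14, -0.45 to 0.16). Summed over these 3 lists at 8000 UMIs per cell, a member had a median of 24 UMIs in KO and 16 in WT, with lower quartiles of 14 in KO and 11 in WT and upper quartiles of 37 in KO and 23 in WT, so the distributions overlapped. High CD201 cells had medians of 27 in KO and 17 in WT. Without the lineage limit the list medians of the log2 ratios were 0.57 for AP-1 subunits, 0.60 for Nr4a, Egr and Klf factors and 0.26 for feedback regulators, and with it at equal depth 0.48, 0.61 and 0.30.

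Early response transcripts were higher in KO both in members rich in G2 and M phase transcripts and in the others. In members rich in G2 and M phase transcripts Fos had 145 CPM in KO and 21.9 CPM in WT (2.72, 2.24 to 3.24), and in the other members 191 CPM in KO and 42.5 CPM in WT (2.16, 1.87 to 2.46). Klf2 had ratios of 2.28 in the rich and 2.07 in the other members, and Egr1 1.33 and 0.87. The differences of these ratios between low and high CD201 cells had intervals that held 0 for Fos (0.12, -0.22 to 0.47), Klf2 (0.03, -0.61 to 0.68) and Nr4a2 (0.11, -0.86 to 1.08).

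Heat shock chaperones, which refold damaged proteins, differed gene by gene. Of 12 measured members 3 were at least 1.5-fold higher in KO and 0 lower, and the median log2 ratio was 0.02, below the all-gene median. Hspa1a had 177 CPM in KO and 37.4 CPM in WT members, a ratio of 2.25 (2.01 to 2.49), and Hspa1b 191 CPM in KO and 62.3 CPM in WT, a ratio of 1.61 (1.42 to 1.81). These inducible HSP70 genes (chr17:34969359-34972156 and chr17:34956429-34959238) are near-identical, so reads of one may be counted for the other. The ratios exceeded those in high CD201 cells by 0.57 (0.14 to 1.00) for Hspa1a and 0.60 (0.27 to 0.93) for Hspa1b. Dnajb4 had 75.1 CPM in KO and 49.9 CPM in WT (0.59). The constitutive chaperone genes Hspa8, Hsp90ab1 and Hsp90aa1 had -0.09, -0.13 and 0.03.

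Of 8 integrated stress response genes 1, the phosphatase subunit gene Ppp1r15a, was at least 1.5-fold higher, with 79.0 CPM in KO and 47.2 CPM in WT (0.74, 0.48 to 1.01), and the list median was 0.31. The factor gene Atf4 had 100 CPM in KO and 68.9 CPM in WT (0.54). Of 8 p53 targets 1, Plk2, was past that fold, with 24.0 CPM in KO and 7.48 CPM in WT (1.68, 1.10 to 2.27), and the median was 0.05. The metallothionein genes Mt1 and Mt2, which bind zinc and other metals, had 92.3 and 54.7 CPM in KO and 23.3 and 7.84 CPM in WT, ratios of 1.98 (1.67 to 2.30) and 2.80 (2.31 to 3.32). Mt2 UMIs came from 28 of 108 KO and 25 of 282 WT members, and outside the gate Mt2 had 514 CPM in KO and 245 CPM in WT. The ratios of Mt1 and Mt2 were larger in high CD201 cells, at 3.24 and 3.82, and in CD150-CD48- cells, at 3.43 and 3.27. Over all cells outside the gate they were smaller than in the members, at 1.07 for both genes. Of 6 BCL2 family genes 0 were past the fold in either direction, near the all-gene shares of 4.41% higher and 0.568% lower.

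Among cell cycle genes, those of G2 and M phase had log2 ratios above 0 in KO members in 50 of 50 measured cases, and 29 were at least 1.5-fold higher. Their median was 0.63 in the members and 0.11 in high CD201 cells, where 3 of 33 were higher and 4 lower. The median difference of the ratios, low minus high CD201, was 0.57, but -0.15 without the lineage limit, -0.065 with it at equal depth and 0.0049 with a CD48 limit of CLR 1. Hmmr, which encodes a spindle-associated receptor of hyaluronan, had 133 CPM in KO and 48.6 CPM in WT members (1.45, 1.22 to 1.68), the kinase gene Ttk 37.9 CPM in KO and 14.6 CPM in WT (1.38), and the centromere protein gene Cenpf 212 CPM in KO and 95.8 CPM in WT (1.15). Cyclin B1 (Ccnb1) had 62.6 CPM in KO and 30.5 CPM in WT (1.04). With a CD48 limit of CLR 1 the list median of KO over WT was -0.11. Ube2c, the ubiquitin-conjugating enzyme of mitotic exit whose promoter is printed above, had 256 CPM in KO and 134 CPM in WT members (0.94), and 30.8 CPM in KO and 53.4 CPM in WT high CD201 cells (-0.80).

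Of 22 replication-dependent histone genes 9 were at least 1.5-fold higher in KO members and 0 lower, with a median of 0.49, against -0.18 in high CD201 cells. Hist1h2ap had 7148 CPM in KO and 2910 CPM in WT members (1.30). Of 41 S phase genes 0 were higher and 1 lower, with a median of -0.03. The lower gene was Ung, the uracil-DNA glycosylase, with 21.8 CPM in KO and 46.7 CPM in WT (-1.10, -1.52 to -0.69). Its ratio fell short of 1.5-fold with a CD48 limit of CLR 1 (-0.038), without the lineage limit (-0.42) and without the cells rich in G2 and M phase transcripts (-0.58). Of 15 quiescence genes 4 were higher (Nr4a1, Egr1, Btg1 and Btg2, which also stand on the early response lists) and 0 lower, with a median of 0.32. Cdkn1c, a cyclin-dependent kinase inhibitor of stem cell quiescence, had 68.3 CPM in KO and 81.9 CPM in WT (-0.26, -0.51 to -0.02).

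Under the lineage limit, 0 of 22 measured stem cell identity genes were past 1.5-fold in either direction between the libraries. Their median log2 ratio was 0.06. Over all 5985 genes 4.41% were higher and 0.568% lower, around a median of 0.05, so 0 of 22 lies near that share. Mecom had -0.01 (-0.16 to 0.14) and Hlf 0.14 (0.03 to 0.25), and Slamf1 had 0.53 (0.12 to 0.94) and Mycn -0.47 (-0.68 to -0.26). When cells with lineage transcripts were kept, the ratios were -0.51 for Hlf, -0.54 for Mecom and -0.98 for Mycn, the last past 1.5-fold. With the limit applied at equal depth they were -0.41, -0.47 and -0.92, so these ratios rested on the lineage limit. Of 17 interferon response genes 0 were past the fold, with a median of -0.16, and Psmb8, an immunoproteasome subunit gene, had 170 CPM in KO and 243 CPM in WT (-0.51, -0.67 to -0.36). Of 29 splicing factor genes 1, the kinase gene Clk1, was higher, with 179 CPM in KO and 113 CPM in WT (0.66, 0.49 to 0.83), and the list median was 0.12. The counts of interferon response and splicing factor genes also lie near the all-gene shares.

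**Figure D5:**
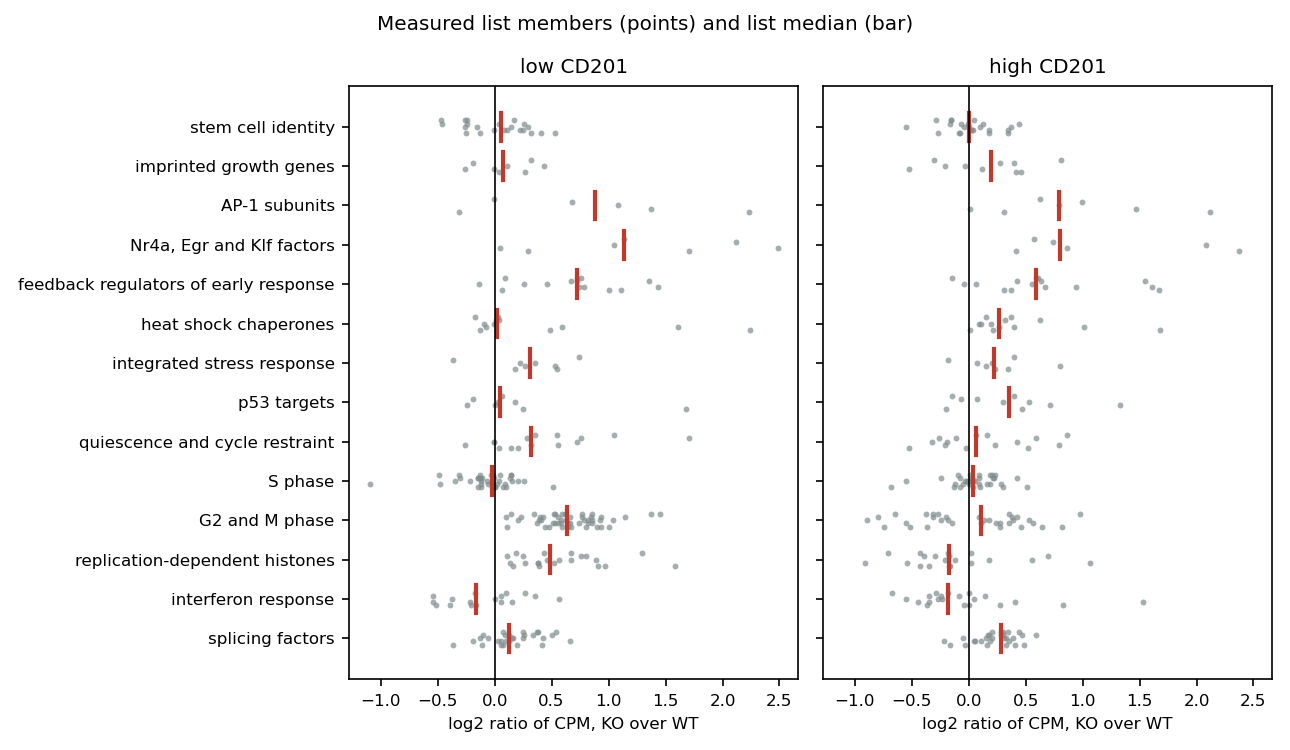
Log2 ratio of KO over WT (horizontal axes) for measured members of 14 gene lists (grey points, 1 per gene) with the list median (bar), in low CD201 cells (left) and high CD201 cells (right). The medians of AP-1 subunits, Nr4a, Egr and Klf factors and feedback regulators are 0.88, 1.13 and 0.73 on the left, with 2 AP-1 subunits and 1 feedback regulator below 0, and 0.79, 0.80 and 0.59 on the right; the G2 and M phase median is 0.63 on the left and 0.11 on the right, where genes lie on both sides of 0.

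Among the 12 genes ranked lowest in KO members, Pbld1, Bclaf1 and Ung came first. Mgst3, a microsomal glutathione transferase gene, had 27.9 CPM in KO and 49.9 CPM in WT (-0.84), and Ltb 82.2 CPM in KO and 127 CPM in WT (-0.62). The zinc finger genes Zfp397 and Zfp467 had -0.82 and -0.74, Pglyrp2, which encodes a peptidoglycan recognition protein, -0.71, the actin-capping gene Capg -0.55 and Dennd5b -0.51. Pbld1 had 4 UMIs in KO and 149 UMIs in WT members, a ratio of -4.21 (-6.11 to -2.83), but the WT UMIs came from only 13 of 282 cells, and its ratio was 0.29 in high CD201 cells.

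The MHC class II genes among the 12 highest rested on the few cells named above. Cd74 had 158 CPM in KO and 25.6 CPM in WT members (2.62), and 438 of 442 UMIs in KO and 127 of 144 in WT lay in those cells. Without them Cd74 had a ratio of -1.04 and H2-Ab1 -0.03. H2-Eb1 and H2-Aa had 2.51 and 1.91 with them. Ifi27l2a, an interferon-induced gene, had 49.7 CPM in KO and 7.12 CPM in WT members (2.80), and 61.2% of its KO UMIs came from 1 cell. Without the top cell of each library the ratio was 1.95, and 40 of the 139 KO UMIs lay in the class II cells, so that value still rested in part on them.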

How the data were processed

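Polyadenylated RNA and 6 antibody tags were counted in 1 KO and 1 WT library made with 10x 3' chemistry. The authors deposited raw counts (UMIs) of 32285 genes and 6 antibodies for 2456731 KO and 2395014 WT barcodes. The matrices came from Cell Ranger 4 per the file headers, and from Cell Ranger 4.0.6 on mm10 per the submitters' processing notes. The 78 gene identifiers that share a symbol were kept apart by identifier.

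Barcodes were called and gated as given in the results. No doublet caller was run, and an alternative left out the 5% of cells with most UMIs. Counts were summed over the cells of each population and library and divided by summed gene UMIs (CPM). Ratios have exact conditional binomial 95% intervals, levels exact Poisson, shares Clopper-Pearson and their differences Newcombe intervals, all of which cover counting error only. A gene was measured at 20 CPM or more in either arm and counted as higher or lower past 1.5-fold. For shares and per-cell sums each cell was thinned to 8000 UMIs with a fixed seed. Total gene UMIs were 104951740 in KO and 141475677 in WT.

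Named genes were Bclaf1, the markers and antibody genes, the 12 genes ranked highest and lowest by the interval bound nearest to 0 between genotypes and between CD201 groups, 8 each way against CD150-CD48- cells, 5 each way for the difference of genotype ratios, and up to 4 of each of 36 lists. Other list members named here were chosen after their values were seen. Some genes that this rule names are not reported here. Haemoglobin, sex-linked and mitochondrial genes stayed out of the rankings. The members and lists were chosen with earlier results of these data known. The calculation was tested on simulated data. Python 3.11.15 with numpy 2.4.6, scipy 1.17.1, pandas 2.3.3, statsmodels 0.14.6 and matplotlib 3.10.9 was used.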

Additional observations from a re-analysis of the deposited data

Results flagged for a closer look

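For 7 named genes the KO over WT log2 ratio had opposite signs in low and high CD201 cells with both counting intervals clear of 0. With 1 library per genotype the difference was not tested. Nusap1, a spindle protein gene, had 0.92 in low and -0.89 in high CD201 cells, and Ube2c had 0.94 in low and -0.80 in high CD201 cells. Id3, an inhibitor of bHLH factors, had 1.35 in low and -1.64 in high CD201 cells, and its UMIs came from 9 of the KO and 18 of the WT low CD201 cells. Ifi27l2a had 2.80 in low and -1.73 in high CD201 cells. Zfp397 had -0.82 in low and 0.42 in high CD201 cells. Gm26917 had -0.31 in low and 2.21 in high CD201 cells, and Gm42418 had -0.22 in low and 0.69 in high CD201 cells.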

How the results depend on the processing

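No paired analysis was possible because each genotype had 1 library, and no library could be left out. Of 23 alternatives, 5 of them chosen after seeing the data (the cells with MHC class II transcripts, the cells rich in G2 and M phase transcripts, 2 other limits on that richness, and the single cell with most UMIs of a gene), the KO over WT medians ranged from 0.48 to 1.19 for AP-1 subunits (0.88 as reported), from 0.60 to 1.52 for Nr4a, Egr and Klf factors (1.13) and from 0.26 to 0.84 for feedback regulators (0.73). The lowest came with cells holding lineage transcripts kept or limited at equal depth. Among 28 named genes, 407 recomputed values stayed within the counting interval, 113 moved beyond it and 7 changed sign. A change of sign was counted only where the reported interval was clear of 0. The cause of each change was not tested.

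With 2 times the UMI minimum the KO minus WT difference was 0.049 points for the share of members and -1.11 points for cells rich in G2 and M phase transcripts. There, 68 genes were lower in KO, and the G2 and M phase medians were 0.62 for low over high CD201 in WT, 0.33 for KO over WT and 1.03 for low minus high CD201. With the WT CD201 median in both libraries the share difference was -2.57 points, 67 genes were lower in KO and the G2 and M phase median of KO over WT was 0.80. With a CD48 CLR below 1, 402 genes were higher and 145 lower in KO and 59 lower in low than high CD201 cells. The share of rich cells differed by -5.45 points, the G2 and M phase medians were 0.89 (low over high CD201, KO), -0.11 (KO over WT) and 0.0049 (low minus high CD201), the histone median 0.086 and the stem cell identity median in WT -0.23. Mycn had 0.010, Zfp397 0.042 and Ifi27l2a -0.37 there. With a CD150 CLR above 0, 410 genes were higher and 110 lower in KO, 181 were lower than in high CD201 and 124 lower than in CD150-CD48- cells. Its G2 and M phase medians were 2.90 in KO and 1.29 in WT (low over high CD201), 0.79 (KO over WT) and 1.61 (low minus high CD201).

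Without the lineage limit 180 genes were higher and 175 lower in KO, 100 higher in low than high CD201 cells, and 30 higher and 48 lower than in CD150-CD48- cells. G2 and M phase medians were 0.80 (low over high CD201, KO), 0.43 (KO over WT) and -0.15 (low minus high CD201), the stem cell identity median in WT -0.69 and Hlf -0.51. With that limit at equal depth the counts were 214 higher and 173 lower in KO, 210 lower in low than high CD201 cells, and 28 higher and 50 lower than in CD150-CD48- cells. The medians were 0.96, 0.51, -0.065 and -0.66 in the same order, and Hlf had -0.41. The lowest against the highest CD201 tertile gave 84 genes lower in KO, 279 higher and 255 lower in low than high CD201 cells, 119 higher than in CD150-CD48- cells, and G2 and M phase medians of 2.52 in KO, 1.44 in WT and 0.81 (low minus high CD201).

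Genes higher and lower in KO, higher and lower in low than high CD201 cells, and higher and lower than in CD150-CD48- cells numbered 2213, 877, 514, 837, 509 and 678 with no minimum level. They numbered 107, 5, 83, 37, 31 and 28 at 50 CPM, 968, 307, 385, 537, 235 and 268 at a smaller fold limit, and 51, 3, 86, 19, 12 and 22 at 2-fold. Thinned cells gave 544 higher and 205 lower in KO. Lower genes in KO were 54 with a mitochondrial limit of 5%, 71 with median-of-ratios scaling, 52 as a mean over cells and 57 with free RNA subtracted. Median-of-ratios scaling also gave 62 genes lower in low than high CD201 cells and a stem cell identity median of -0.35 in WT. The mean over cells gave a G2 and M phase difference of 0.37 (low minus high CD201), and free RNA subtraction a median of 1.30 in WT (low over high CD201). Without cells rich in G2 and M phase transcripts, a filter on the same list that by itself lowers its values, 106 genes were lower in KO and 39 higher in low than high CD201 cells. The G2 and M phase medians were then -0.016 in KO and 0.22 in WT (low over high CD201), 0.064 (KO over WT) and -0.085 (low minus high CD201), and the histone median was 0.22. Without the MHC class II cells Cd74 had -1.04 and H2-Ab1 -0.033.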

Other observations

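Haemoglobin transcripts summed to 1617 CPM in KO and 1855 CPM in WT low CD201 cells, and to 454 CPM in KO and 602 CPM in WT cells outside the gate. They were higher in high CD201 cells, at 2190 CPM in KO and 2198 CPM in WT. CD150-CD48- cells had 2105 CPM in KO and 2134 CPM in WT. Oxidative phosphorylation genes encoded in the nucleus had a median log2 ratio of -0.09 between the genotypes over 31 genes. Past 1.5-fold were 0 of them, against 4.41% higher and 0.568% lower of all genes. In low over high CD201 cells the median of the 31 genes was 0.31 in KO and 0.23 in WT.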
